A study of Mus musculus with 6 samples.

Results

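The genes described here encode 10 amino acid transporters of the plasma membrane, Slc7a11, Slc7a5, Slc3a2, Slc7a1, Slc7a3, Slc1a4, Slc1a5, Slc38a1, Slc38a2 and Slc6a9. They were chosen by name, with earlier results of these data known, and all 10 were found among the 30281 gene symbols of the transcript table. Their levels in TPM, the transcript abundance unit of RNA-Seq that is corrected for transcript length and for the size of the library, were summed over the transcripts of each symbol.

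RNA-Seq was performed on poly(A)-selected RNA of 6 mouse cell cultures, with 1 library per condition, to ask what loss of Tsc2 and inhibition of mTORC1 by rapamycin do to the transcriptome. The first pair were embryonic fibroblasts (MEFs), untreated, of genotype Tsc2+/+ p53-/- and Tsc2-/- p53-/-, so that both lacked p53 by their labels. The other 4 libraries came from MKOC and TJ cells, both labelled Tsc2-null mouse kidney epithelial cells, each untreated or given rapamycin at 100 nM. The protocol in the labels is given for every library, the MEFs included, and names 18 hr without serum in either rapamycin or, for controls, diluent. TJ cells were derived from a secondary tumor in C57BL6 mice. Each genotype or line was thus represented by 1 culture, and the labels name no wild-type kidney line and no rapamycin-treated MEFs. MKOC and TJ were the only replicates of the rapamycin comparison. Its p-values rest on how far the response differed between the 2 lines, with 1 residual degree of freedom per gene. They rest more on variance shared across genes, which held 9.06 of 10.063 total degrees of freedom at the median.

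Total estimated counts were between 22887020 and 37505004 per library. Tsc2 RNA was present in every library, at 22.6 and 10.5 TPM in the Tsc2+/+ and Tsc2-/- MEFs, at 49.1 and 19.5 TPM in untreated and treated MKOC cells and at 44.0 and 19.1 TPM in TJ cells. Trp53, which encodes p53, was at 26.3 TPM (1417 counts) in the Tsc2+/+ and 28.5 TPM (741 counts) in the Tsc2-/- MEFs, both labelled p53-/-. The summed level of a gene does not check an allele that lacks only some exons. The MEFs held fibroblast collagens and the kidney lines held Cdh1, Krt8, Krt18, Cdh16, Pax2 and Pax8, but not all markers of either list followed the labels. Dcn was at 7.08 TPM in Tsc2+/+ MEFs and at 25.5 and 50.4 TPM in untreated and treated MKOC cells, Thy1 and Lum were under 1 TPM in Tsc2+/+ MEFs, and Krt19 was under 1 TPM in the kidney libraries. Epcam, an epithelial surface protein, was at or under 3 counts in all 4 kidney libraries, and so were the leukocyte genes Ptprc and Tyrobp. The other macrophage markers were detected in the kidney libraries, Csf1r at 11.3 to 30.3 TPM, Cd14 at 6.76 to 19.4 TPM and Cd68 at 4.48 to 8.01 TPM. In RNA of whole cultures, fewer cells of a type and less RNA per cell cannot be told apart.

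Cells take up amino acids through carriers that either exchange one amino acid for another or couple uptake to the sodium gradient. Slc7a5 (LAT1, for leucine and other large neutral amino acids) and Slc7a11 (xCT, which imports cystine in exchange for glutamate) are light chains that reach the cell surface bound to the heavy chain Slc3a2 (4F2hc, CD98). Slc1a5 (ASCT2) and Slc1a4 (ASCT1) are sodium-dependent exchangers of small neutral amino acids, of which Slc1a5 also carries glutamine. Slc38a1 (SNAT1) and Slc38a2 (SNAT2) concentrate glutamine and alanine with sodium, Slc7a1 (CAT1) and Slc7a3 (CAT3) carry the cationic amino acids arginine and lysine, and Slc6a9 (GLYT1) carries glycine. mTORC1, which the TSC1-TSC2 complex restrains and rapamycin inhibits, is known to respond to amino acids and to raise translation of the transcription factor ATF4, and several of these genes are known targets of ATF4.

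Promoter sequence of RefSeq (GRCm38.p6), from 250 bases before to 50 bases after a gene start, was matched by symbol for 6 of the 10 genes, which had 9 windows in all: Slc7a11, Slc3a2, Slc1a4 and Slc38a2 with 1 each, Slc7a1 with 2 and Slc6a9 with 3. Slc7a5, Slc7a3, Slc1a5 and Slc38a1 were not matched. Both strands were searched for the C/EBP-ATF response element bound by ATF4 (TGATGNAAN), the core of the antioxidant response element bound by NRF2 (TGACNNNGC) and the E box bound by MYC and MAX (CACGTG). The 3 motifs were found in 3.95%, 12.4% and 7.15% of all 32851 windows, and in the windows of the transporter genes no match overlapped another. The sequences below are shown because the genes that hold a C/EBP-ATF element, Slc7a11 and Slc1a4, were among the 4 whose RNA was at most 0.5 of the untreated level in both rapamycin-treated lines. Capitals mark the matches, and every sequence is written 5′ to 3′ on the strand of the gene.
Slc7a11, chr3:50443614-50443713, minus strand, the 100 bases before the start: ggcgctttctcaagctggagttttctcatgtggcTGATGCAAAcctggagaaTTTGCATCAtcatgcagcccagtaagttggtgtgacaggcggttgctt
Slc1a4, chr11:20332710-20332739, minus strand: agcctccagcgtgcctcctgcGTTGCATCA

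Slc7a11 held the C/EBP-ATF element 2 times, first on the strand of the gene at positions -66 to -58 from the start and then on the opposite strand at -48 to -40. Only 23 of all 32851 windows held this motif 2 or more times. In Slc1a4 the match lay on the opposite strand and overlapped the start itself. Matches of the antioxidant core included 1 in Slc38a2 and, in separate windows, 2 in Slc6a9, shown because rapamycin lowered Slc6a9 while Slc38a2 was not called. The window of Slc3a2 held none of the 3 motifs, and no window of the transporter genes held an E box. A match describes letters in the window and is not evidence of a bound site.
Slc6a9, chr4:117849283-117849312, plus strand: aggagatgaggtgaaagtaatTGACGCTGC
Slc6a9, chr4:117855481-117855510, plus strand: caggcccctttgtttccggctTGACTTGGC
Slc38a2, chr15:96699747-96699776, minus strand: gaacgcccgcgccccgcccacTGACGCGGC

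The transporter genes were expressed in every library, at a summed level of 1105 TPM in the Tsc2+/+ and 1193 TPM in the Tsc2-/- MEFs, 1162 TPM in untreated MKOC cells and 1134 TPM in untreated TJ cells. The sum was lower in both rapamycin-treated libraries, at 777 TPM in MKOC and 805 TPM in TJ cells, or 0.669 and 0.710 of the untreated level. The genes with the highest TPM were Slc3a2 in all 6 libraries, and the lowest were Slc7a11 and Slc7a3 in the kidney lines and Slc38a1 and Slc7a3 in Tsc2+/+ MEFs. Within a gene, the ratio of the highest to the lowest library ran from 1.37 for Slc7a1 and 1.39 for Slc3a2 to 166 for Slc7a3 and 404.5 for Slc38a1. When the 6 libraries were put in order for each gene, 17 of the 50 pairs of neighbours had overlapping 95% Wilson intervals, which cover counting error only.

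**Figure D1:**
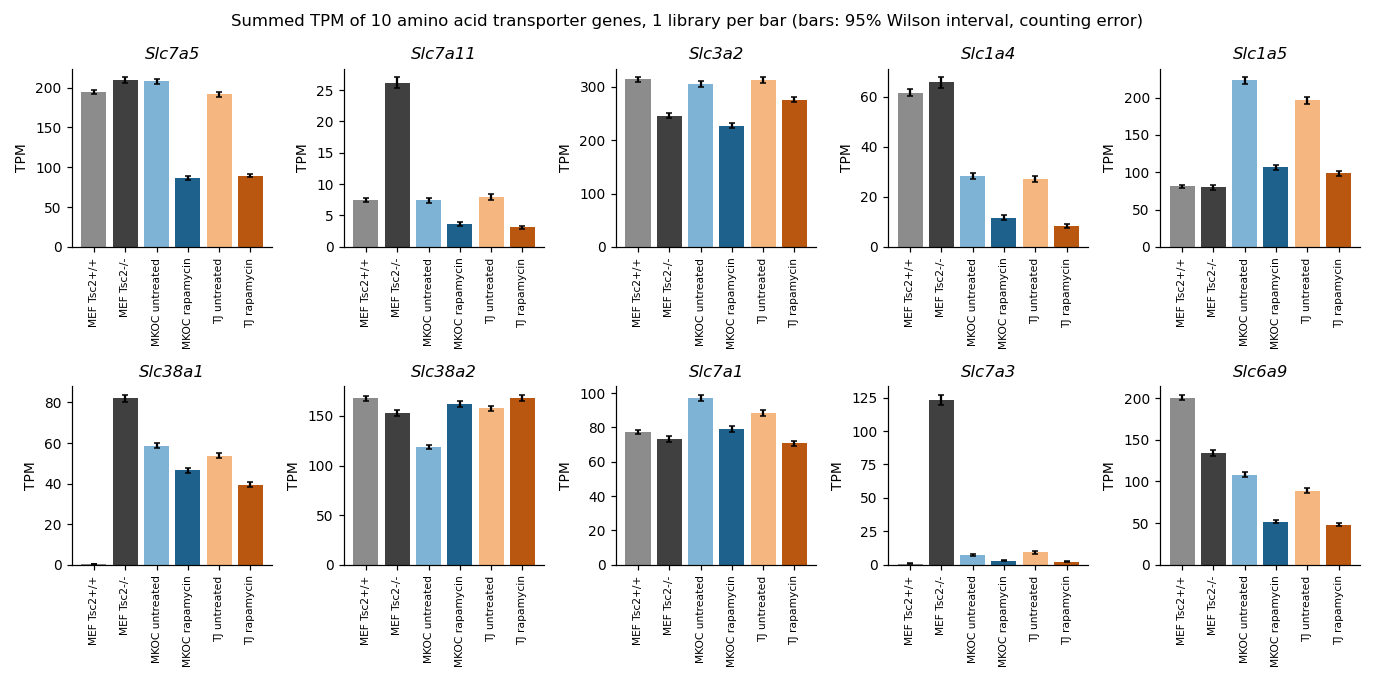
Summed TPM of each transporter gene (y axis, linear from 0, a separate scale per gene) in the 6 libraries (x axis), with bars for the value and error bars for the 95% Wilson interval of the counts. Slc3a2, Slc7a1 and Slc38a2 were within 1.42-fold over all libraries, Slc38a1 was at 0.203 TPM in the Tsc2+/+ and 82.0 TPM in the Tsc2-/- fibroblasts, and 9 of the 10 genes had lower bars with rapamycin in both kidney lines.

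Rapamycin lowered 9 of the 10 transporter genes in the kidney lines and raised none (edgeR quasi-likelihood test over 4 libraries with the line as covariate, adjusted p under 0.05 over 12952 genes). Of all tested genes 17.4% were called lower and 17.5% higher. In TPM, both treated libraries were below both untreated libraries for the same 9 genes, a pattern seen in 28.6% of tested genes, and 4 genes, Slc7a11, Slc7a5, Slc7a3 and Slc1a4, were at most 0.5 of the untreated TPM in each line, against 2% of tested genes. Over the 10 genes the log2 fold change had a median of -0.95, beside 0.01 for all tested genes. Because the 10 genes were chosen with earlier results of these data known, these counts and this median are not independent evidence.

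The light chains Slc7a5 and Slc7a11 fell, and the 95% intervals of their log2 fold changes (-1.43 to -0.98 and -1.65 to -1.06) did not overlap that of their heavy chain Slc3a2 (-0.55 to -0.08). Slc7a5 (chr8:121881150-121907694 in GRCm38) was at 208 TPM in untreated and 86.1 TPM in treated MKOC cells, and at 191 TPM in untreated and 89.5 TPM in treated TJ cells. The groups did not overlap, and the log2 fold change was -1.20 (SE 0.10, adjusted p = 3.06e-05), a 2.30-fold lower level. Slc7a11 (chr3:49892526-50443614) was at 7.39 and 3.60 TPM in untreated and treated MKOC cells and at 7.92 and 3.09 TPM in TJ cells. It was thus the lowest or next to lowest of the 10 in every kidney library, and its log2 fold change was -1.35 (SE 0.13, adjusted p = 8.19e-05). Slc3a2 (chr19:8706882-8723369) was at 305 and 227 TPM in MKOC cells and at 313 and 276 TPM in TJ cells. Its treated libraries were also the lower ones, but by a smaller step, with a log2 fold change of -0.31 (SE 0.11, adjusted p = 0.042). This call was lost with upper-quartile factors (adjusted p = 0.0665), library size alone (0.0754), an offset for effective length (0.0675), DESeq2 (0.0568) and limma on log2(TPM + 1) (0.0675).

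Slc3a2 also pairs with the light chains Slc7a6, Slc7a7, Slc7a8 and Slc7a10. Slc7a6, a neutral and cationic amino acid exchanger, was at 67.3 and 68.0 TPM in untreated and treated MKOC cells and at 87.7 and 113 TPM in TJ cells, and did not pass the test (log2 fold change 0.18, SE 0.11, adjusted p = 0.23). Slc7a7 was at 6.27 and 6.96 TPM in MKOC cells and at 7.29 and 10.1 TPM in TJ cells, and Slc7a8 and Slc7a10 were under 1 TPM in every library. Slc7a5 made up 71.9% of the summed light-chain TPM in untreated MKOC and 65.0% in untreated TJ cells, and 52.3% and 41.5% after rapamycin, so that Slc7a6 was the most abundant light chain in treated TJ cells. The summed light chains per Slc3a2 were 0.945 and 0.940 in the untreated and 0.726 and 0.780 in the treated MKOC and TJ cells. This ratio was read from 2 libraries a group and was not tested.

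**Figure D2:**
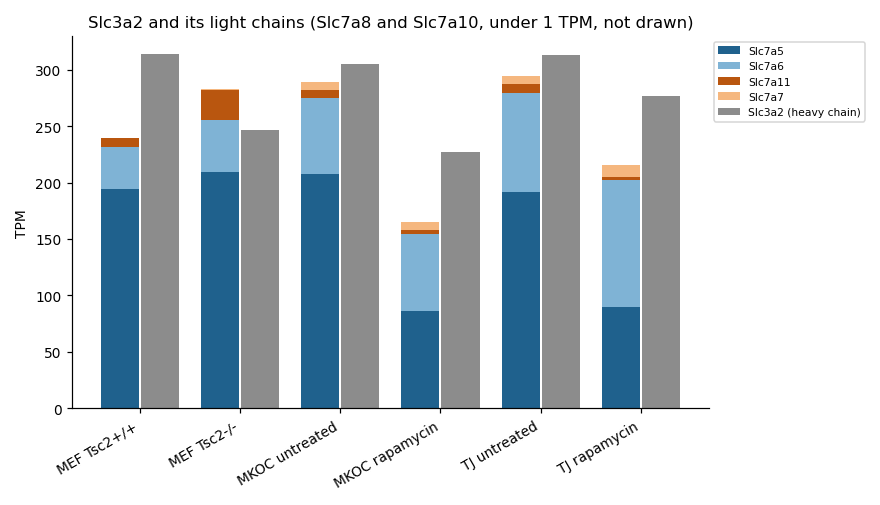
TPM (y axis, linear from 0) of 4 light chains, stacked, and of the heavy chain Slc3a2 beside them, in the 6 libraries (x axis). The Slc7a5 part of the stack is smaller in both rapamycin libraries (86.1 and 89.5 TPM) than in the other 4 (191 TPM or more), while the Slc7a6 part is not smaller than in untreated cells of the same line (68.0 against 67.3 TPM in MKOC and 113 against 87.7 TPM in TJ cells), and the stack exceeds Slc3a2 only in Tsc2-/- MEFs.

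Both exchangers of small neutral amino acids fell. Slc1a4 (chr11:20302180-20332713) was at 28.1 and 11.6 TPM in untreated and treated MKOC cells and at 26.9 and 8.34 TPM in TJ cells. Untreated cells of both lines were nearly alike and both treated libraries were far below them, with a log2 fold change of -1.49 (SE 0.13, adjusted p = 3.74e-05). Slc1a5 (chr7:16781340-16798274) was at 223 and 106 TPM in MKOC cells and at 196 and 98.6 TPM in TJ cells, with a log2 fold change of -1.11 (SE 0.10, adjusted p = 3.74e-05). Slc1a5 was the more abundant of the pair in every library. The ratio of Slc1a5 to Slc1a4 was 7.95 and 7.28 in untreated and 9.15 and 11.8 in treated MKOC and TJ cells.

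Of the system A carriers only Slc38a1 was called. Slc38a1 (chr15:96571418-96642913) was at 58.6 and 46.5 TPM in untreated and treated MKOC cells and at 53.8 and 39.5 TPM in TJ cells, with both treated libraries lower and a log2 fold change of -0.39 (SE 0.10, adjusted p = 0.0115). Slc38a2 (chr15:96687392-96699730), its neighbour on chromosome 15, was at 119 and 162 TPM in MKOC cells and at 158 and 168 TPM in TJ cells. Both treated libraries were above both untreated ones, but the step was 1.36-fold in MKOC and 1.07-fold in TJ cells, and the log2 fold change of 0.26 (95% interval 0.01 to 0.51, unadjusted p = 0.0414, adjusted p = 0.0959) did not pass the threshold. It was the only one of the 10 genes with a positive value. TPM of Slc38a2 over Slc38a1 was 2.03 and 2.93 in untreated and 3.48 and 4.26 in treated MKOC and TJ cells.

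The cationic amino acid carriers both fell, from very different levels. Slc7a1 (chr5:148327410-148399904) was at 97.3 and 79.1 TPM in untreated and treated MKOC cells and at 88.4 and 70.9 TPM in TJ cells. The treated libraries did not overlap the untreated ones, and the log2 fold change was -0.32 (SE 0.10, adjusted p = 0.0269). Slc7a3 (chrX:101079210-101086020) was at 6.95 and 2.98 TPM (295 and 93 counts) in MKOC cells and at 9.21 and 2.10 TPM (334 and 87 counts) in TJ cells. Its log2 fold change of -1.63 (SE 0.22, adjusted p = 0.000464) was the most negative of the 10, and 0.849% of all tested genes had a lower value. The step was 2.34-fold in MKOC and 4.39-fold in TJ cells, and the difference between the lines in this step was not tested, since each line had 1 library per treatment. The glycine carrier Slc6a9 (chr4:117834506-117875198) was at 108 and 51.9 TPM in MKOC cells and at 89.1 and 48.0 TPM in TJ cells, with both treated libraries lower and a log2 fold change of -0.80 (SE 0.10, adjusted p = 0.000377).

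**Figure D3:**
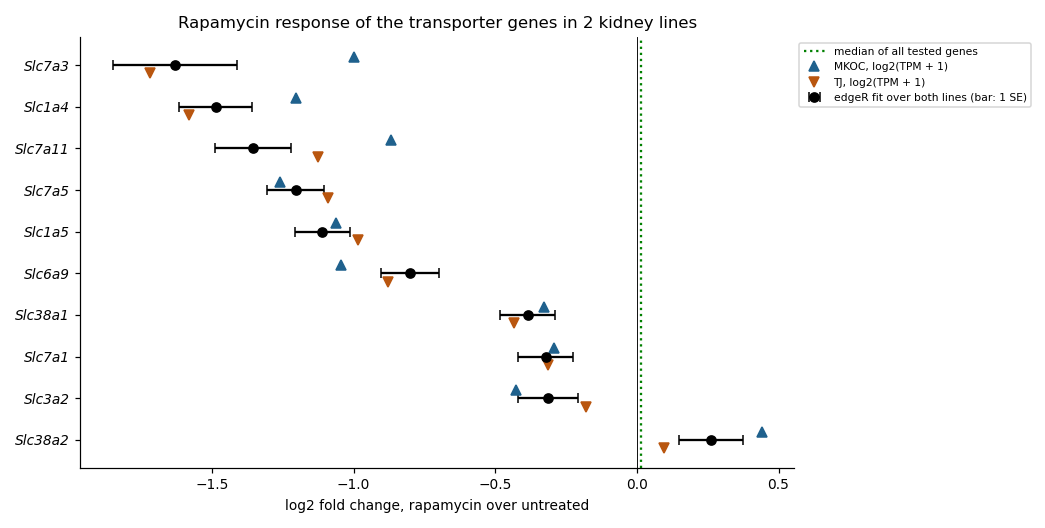
Log2 fold change with rapamycin (x axis) for each transporter gene (y axis, ordered by value), as fitted by edgeR over both kidney lines (black points, bars of 1 SE) and as log2(TPM + 1) within MKOC (upward triangles) and TJ (downward triangles). The points run from -1.63 for Slc7a3 to 0.26 for Slc38a2, 9 of 10 lie left of 0, and adding 1 TPM draws the values of the low genes Slc7a11 and Slc7a3 towards 0.

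The same sign was found for each of the 10 genes in every refit listed in the closing section. Without the line in the model 6 genes were called lower, and Slc3a2, Slc7a1 and Slc38a1 were not (adjusted p = 0.201, 0.173 and 0.125). When 1 library was left out, which also required a model without the line, 5 genes were called without treated MKOC, 4 without treated TJ, 1 without untreated MKOC and 0 without untreated TJ cells. Of 8 tested kidney epithelial markers 3 were higher with the treatment (Krt8, Krt18 and Cdh16), beside 17.5% of all tested genes, and 5 were not called. The summed level over 10 markers was 1488 and 1708 TPM in untreated and 2135 and 2527 TPM in treated MKOC and TJ cells. The part of these markers in the fall of the transporters was not tested. Of 7 tested fibroblast markers 2 were higher, Dcn and Col3a1, with a summed level over 8 markers of 26.7 and 7.73 TPM in untreated and 52.0 and 13.3 TPM in treated MKOC and TJ cells. Dcn alone held 25.5 and 6.73 TPM of the untreated and 50.4 and 10.5 TPM of the treated sums, and Col3a1 was at 1.07 TPM or less, so that the sum followed Dcn and not the list. Of 3 tested macrophage markers 2 were higher, and 0 of 2 tested endothelial markers were called. All these marker counts are to be read beside the 17.5% higher and 17.4% lower over all tested genes.

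Of 26 further plasma membrane carriers, 14 were expressed well enough to be tested, of which 2 were called higher and 1 lower, with a median log2 fold change of 0.11. Beside the 17.5% higher and 17.4% lower over all tested genes, these counts and those of the lysosomal carriers are near the background. Slc43a2, a facilitator of large neutral amino acids, rose from 11.5 to 13.2 TPM in MKOC and from 18.9 to 32.2 TPM in TJ cells (log2 fold change 0.58, SE 0.14, adjusted p = 0.00863), and Slc6a18 was called higher at under 1 TPM in all 4 libraries. Slc16a10, a carrier of aromatic amino acids, fell from 14.1 to 8.64 TPM in MKOC and from 25.5 to 21.5 TPM in TJ cells (log2 fold change -0.48, SE 0.13, adjusted p = 0.0165). Of 5 tested carriers of the lysosome 1 was called, the glutamine carrier Slc38a7 (log2 fold change 0.33, SE 0.12, adjusted p = 0.0467).

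Atf4 and genes known as its targets or partners fell in most cases, as the transporters did. The list held 24 genes with none of the transporters among them, and 21 of 23 tested genes were lower, 1 was higher (Gdf15, log2 fold change 0.45) and 1 was not called, with a median of -1.43, beside 17.4% lower and 17.5% higher over all tested genes. Atf4 itself was at 575 and 310 TPM in untreated and treated MKOC cells and at 568 and 250.1 TPM in TJ cells (log2 fold change -1.05, SE 0.11, adjusted p = 0.00011). The largest falls were those of the hormone gene Fgf21 (-2.91), the stress factor Ddit3 (-2.87) and the pseudokinase gene Trib3 (-2.62). The kinases that phosphorylate eIF2alpha, upstream of ATF4 translation, had 0 of 4 called lower and 1 higher (Eif2ak3, log2 fold change 0.32, adjusted p = 0.0467), counts near the shares over all tested genes. A C/EBP-ATF match stood in 8 of 27 promoter windows of the ATF4 list (29.6%) and in 2 of 9 windows of the transporter genes (22.2%), beside 3.95% of all windows. Counted by gene, these were 8 of 23 and 2 of 6, for which no share over all genes was computed.

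Of 9 genes known as targets of NRF2, which is also known to act on Slc7a11, 5 were lower, 0 higher and 4 not called, beside 17.4% lower and 17.5% higher over all tested genes. Hmox1 (heme oxygenase, log2 fold change -1.87), Gclc (a subunit of the enzyme that starts glutathione synthesis, -0.86) and G6pdx (-0.53) were the lowest. Of the other genes of this list of 11, Nfe2l2, which encodes NRF2, was higher (0.39, adjusted p = 0.0285), and its inhibitor Keap1 was not called (0.18, adjusted p = 0.265). Of 4 tested genes of MYC and its partners 3 were higher, Mxd1 (1.12), Mnt (0.91) and Myc (0.45, adjusted p = 0.00591), beside 17.5% of all tested genes. Of these, Mxd1 and Mnt encode repressors that compete with MYC for MAX. These lists were chosen with results of the same libraries known, so their directions are not independent evidence.

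MKOC and TJ cells were compared next, because both are labelled as Tsc2-null kidney lines and only TJ as tumor-derived. None of the 10 transporter genes was called between the lines (edgeR, with the treatment as covariate), beside 8.79% of all tested genes, and limma and DESeq2 also called 0. At an unadjusted p under 0.05 the count was 0 as well. The largest difference was that of Slc1a4, -0.28 in log2 for TJ over MKOC (95% interval -0.56 to 0.005, adjusted p = 0.23), followed by Slc38a2 at 0.21 (-0.04 to 0.46). The widest interval was that of the low gene Slc7a3, from -0.44 to 0.52, and for Slc7a5 it was -0.28 to 0.17. These intervals leave room for differences of up to 1.48-fold in 1 direction or the other and do not show that the lines were alike. A count of 0 of 10 is near the share of 8.79% over all genes. Calls were also few in some other lists, with 0 of 5 lysosomal carriers, 0 of 4 eIF2alpha kinases, 0 of 4 MYC genes, 1 of 11 NRF2 genes (Txnrd1, log2 -0.35) and 2 of 23 ATF4 genes (Ddit4, 0.90, and Psph, -0.63). The cell type marker lists, some of which held larger shares of calls between the lines, are not counted here. Of the 14 tested other plasma membrane carriers 6 were called higher in TJ cells, led by the glutamate carrier Slc1a2 (log2 2.23), Slc6a19 (2.07) and Slc6a18 (1.97), of which Slc6a19 and Slc6a18 were at 1.75 TPM or less in all 4 libraries.

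In the MEFs, Slc7a11, Slc7a3 and Slc38a1 were at least 2-fold higher in the Tsc2-/- library, 0 transporter genes were at least 2-fold lower and 7 were in between. With 1 library per genotype there was no replicate check and no test. Over all 12771 genes of at least 1 TPM, 25.2% were at least 2-fold higher and 5.18% at least 2-fold lower, and the median log2 change was 0.45, beside 0.04 for the 10 genes. Over 7377 genes of at least 10 TPM in both libraries, TPM in Tsc2-/- MEFs was 1.31 times that in Tsc2+/+ MEFs at the median, a shift of 0.39 in log2, so values are given both as deposited and after division by this ratio.

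Slc38a1 was at 0.203 TPM (45 counts, 95% Wilson interval 0.152 to 0.271 TPM) in Tsc2+/+ MEFs and at 82.0 TPM (8870 counts) in Tsc2-/- MEFs. The Tsc2+/+ library thus nearly lacked this carrier, which was at 39.5 to 58.6 TPM in the kidney lines, and the ratio of the TPM values was 404.5, or 69.0 with 1 TPM added to both. Slc7a3 was at 0.740 TPM (55 counts, interval 0.569 to 0.963 TPM) in Tsc2+/+ and at 123 TPM (3968 counts) in Tsc2-/- MEFs, a ratio of 166, or 71.3 with 1 TPM added. Its Tsc2-/- level was far above the 2.10 to 9.21 TPM of the kidney lines. Slc7a11 was at 7.46 TPM (1955 counts) in Tsc2+/+ and at 26.2 TPM (3579 counts) in Tsc2-/- MEFs, a ratio of 3.51. Its Tsc2+/+ level lay beside those of the untreated kidney lines, 7.39 and 7.92 TPM, with overlapping intervals. All 3 genes stayed more than 2-fold higher after scaling by the median ratio, at 309, 127 and 2.68.

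The other 7 genes were within 2-fold. Slc6a9 was at 200.5 and 134 TPM in Tsc2+/+ and Tsc2-/- MEFs and Slc3a2 at 314 and 246 TPM, the lowest log2(TPM + 1) changes of the 10 at -0.57 and -0.35. Slc38a2 was at 168 and 153 TPM, Slc7a1 at 77.3 and 73.4 TPM and Slc1a5 at 80.9 and 79.7 TPM, so that all 3 differed by less than 1.10-fold. Slc7a5, at 194.5 and 209 TPM, and Slc1a4, at 61.5 and 65.6 TPM, had small positive changes of 0.10 and 0.09, which turned to -0.28 and -0.29 after scaling. After scaling all 7 genes were lower in Tsc2-/- MEFs, by 0.28 to 0.96 in log2, and Slc6a9 reached -1.04 with TMM-scaled counts, past 2-fold. The summed light chains per Slc3a2 rose from 0.764 to 1.15 and Slc38a2 over Slc38a1 went from 827 to 1.87 between the Tsc2+/+ and Tsc2-/- libraries.

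**Figure D4:**
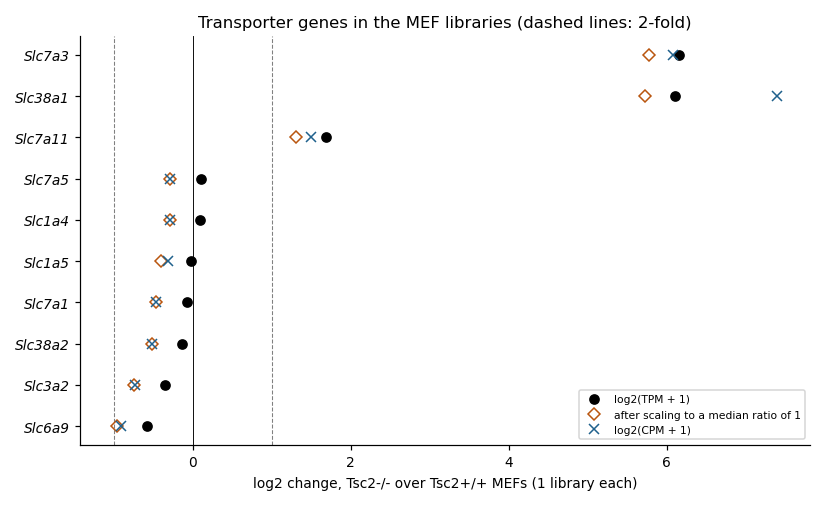
Log2 change between the Tsc2-/- and Tsc2+/+ MEF libraries (x axis) for each transporter gene (y axis), from TPM with 1 added (black points), after scaling to a median ratio of 1 (open diamonds) and from CPM, the counts scaled by library size, with 1 added (crosses). Slc7a3 (6.16), Slc38a1 (6.11) and Slc7a11 (1.69) lie right of the dashed 2-fold line on all 3 scales, and the other 7 lie between the dashed lines and left of 0 after scaling.

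Other genes differed between the MEF libraries as well. Of the 12 genes of at least 1 TPM listed as other plasma membrane carriers, 7 were at least 2-fold higher in Tsc2-/- MEFs. Among them were Slc6a17 (log2 change 2.73) and Slc16a10 (2.16), and the glutamate carrier Slc1a3 was lower (-1.46). The list was set by name, and the place of each carrier in the cell was not checked. The counts of these carriers and those that follow are to be read against the 25.2% of all genes that were at least 2-fold higher and the 5.18% that were lower. No list was tested. Of 24 genes of the ATF4 list 8 were higher, led by Vldlr (6.32) and Fgf21 (2.78), and 1, Stc2, was lower (-1.08), while Atf4 was at 479 and 648 TPM and Ddit3 at 478 and 438 TPM. NRF2 targets had 4 of 9 higher, with Txnrd1 (1.73) and Osgin1 (1.60) the highest, and Nfe2l2 was at 65.3 and 68.8 TPM and Keap1 at 15.8 and 27.6 TPM. Of the MYC genes 1 of 5 was higher, Mycn (3.14), and Myc was at 127 and 76.5 TPM. None of 5 lysosomal carriers and none of 4 eIF2alpha kinases reached 2-fold. The summed kidney epithelial markers were 11.4 and 101 TPM in Tsc2+/+ and Tsc2-/- MEFs, with Krt19 at 0.0506 and 55.6 TPM, the fibroblast markers 1824 and 2502 TPM, the macrophage markers 5.37 and 17.8 TPM and the endothelial markers 0.301 and 1.81 TPM. The part of these other differences between the cultures in the 3 transporters was not tested.

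The MEF and rapamycin comparisons share no library. The 3 genes that were higher in Tsc2-/- MEFs were called lower with rapamycin in the kidney lines, as were 9 of the 10 genes in all, so this count says nothing particular of the 3. Their values were MEF log2 changes of 6.16, 6.11 and 1.69 beside rapamycin log2 fold changes of -1.63, -0.39 and -1.35 for Slc7a3, Slc38a1 and Slc7a11. Slc1a4, Slc7a5, Slc1a5 and Slc6a9, which rapamycin lowered by 0.80 or more in log2, changed by 0.09, 0.10, -0.02 and -0.57 in the MEFs. The fibroblasts and the kidney lines also differed in level, with both MEF libraries above all 4 kidney libraries for Slc1a4 (61.5 and 65.6 TPM against at most 28.1 TPM) and Slc6a9 (200.5 and 134 TPM against at most 108 TPM). For Slc1a5 the MEFs were below all of them, at 80.9 and 79.7 TPM against at least 98.6 TPM. The ratio of Slc1a5 to Slc1a4 was 1.32 and 1.21 in the MEFs, below the 7.28 to 11.8 of the kidney lines. Cell type and culture cannot be told apart here.

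The transcripts behind the gene sum of Slc1a5 had different shares in MEFs and kidney lines. The table listed 7 transcripts, and the full-length coding one, Slc1a5-201, held 75.1% and 81.0% of the TPM in Tsc2+/+ and Tsc2-/- MEFs and 54.1% to 61.5% in the kidney libraries. Slc1a5-202, annotated as a retained-intron transcript over nearly the same span (chr7:16781368-16798274), held 0.880% and 0.954% in the MEFs and 22.5% and 25.2% in untreated and treated MKOC and 27.1% and 22.1% in TJ cells. All 4 kidney libraries were thus above both MEF libraries, with little difference between treated and untreated cells. For Slc1a4, the coding transcript Slc1a4-201 held 44.6% and 47.1% in the MEFs and 60.7% and 59.2% in untreated and treated MKOC and 73.4% and 63.4% in TJ cells, and Slc1a4-202 the rest.

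In Slc38a1 the shares differed between treated and untreated cells of both lines. Slc38a1-202, the main coding transcript, held 80.0% of the TPM in untreated and 69.6% in treated MKOC cells, and 81.8% and 68.5% in TJ cells. Slc38a1-201 went from 5.43% to 10.5% and from 3.83% to 10.3%, and Slc38a1-203 from 14.6% to 19.9% and from 14.4% to 21.2%. Fitted by transcript, the log2 fold changes were -0.65 (SE 0.09) for Slc38a1-202, 0.08 (SE 0.10) for Slc38a1-203 and 0.76 (SE 0.19) for Slc38a1-201, with adjusted p = 0.171, 0.71 and 0.221 over 32860 transcripts. No main transcript of the 10 genes passed the threshold in this fit, whose lowest adjusted p for them was 0.171. In Slc7a11 the retained-intron transcript Slc7a11-202 held 10.8% and 20.7% in untreated and treated MKOC and 7.45% and 22.4% in TJ cells, while its fitted log2 fold change was 0.02 (SE 0.40) against -1.47 (SE 0.16) for the coding Slc7a11-201. In Slc7a3 the coding Slc7a3-201 held 81.6% and 48.9% in untreated and treated MKOC and 60.0% and 36.6% in TJ cells. Its fitted log2 fold change was -2.42 (SE 0.37). The values were 0.48 (SE 0.85) for Slc7a3-203, -2.86 (SE 1.45) for Slc7a3-202 and -1.78 (SE 0.76) for Slc7a3-205. Reads shared by such overlapping transcripts were divided by estimation, so these shares carry an estimation error that was not analysed here.

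**Figure D5:**
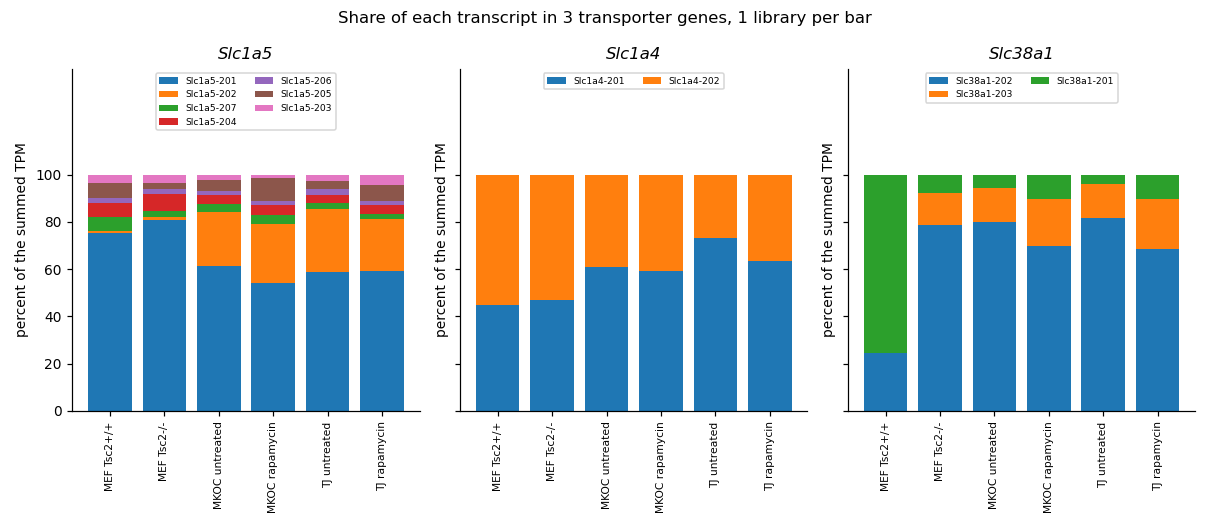
Share of the summed TPM (y axis, percent) held by each annotated transcript of Slc1a5, Slc1a4 and Slc38a1 in the 6 libraries (x axis), stacked to 100%. Slc1a5-202 holds 22.1% to 27.1% in the kidney libraries and under 1% in the MEFs, and Slc38a1-202 holds 68.5% to 69.6% in the treated and 80.0% to 81.8% in the untreated kidney libraries, while Tsc2+/+ MEFs had 45 counts of Slc38a1 in all.

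The genes with the most similar profile were found for each transporter by the root mean square difference (RMS) of log2(TPM + 1), centred on its mean over the 6 libraries, among 10105 genes of at least 10 TPM in some library. For Slc1a4 they were Gpt2 (alanine aminotransferase, RMS 0.18), Pycr1 (proline synthesis, 0.19) and Acot2 (0.20), against 1.06 for the profile of Slc1a4 itself. For Slc6a9 they were Ldlrad3 (0.11), Gclc (0.12) and the mitochondrial Pck2 (0.12), and for Slc7a11 the connexin gene Gja1 (0.19), Nt5dc2 (0.22) and Ppfibp1 (0.26). Slc7a5 lay nearest to Acsl1 (0.10), Mknk1 (0.10) and the chaperonin gene Hspd1 (0.12), and Slc1a5 to Mettl9 (0.11), Itpk1 (0.13) and Slc48a1 (0.13). The nearest genes of Slc7a3 were Lpl (0.45), Adm2 (0.47) and Il1rn (0.52), all with their highest TPM in Tsc2-/- MEFs. Those of Slc38a1 were Hoxb9 (0.31), Rnf128 (0.32) and Cpne8 (0.34), all under 1 TPM in Tsc2+/+ MEFs. For the flatter profiles the nearest were Ftsj1, Psma6 and Mcts1 for Slc3a2, Abcc4, Fem1b and Setd6 for Slc7a1, and Vipas39, AW549877 and Irak1 for Slc38a2, with an RMS of at most 0.08. These are likenesses over 6 libraries that share a few large contrasts.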

How the data were processed

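Poly(A)-selected stranded libraries of 6 mouse cultures were sequenced as read pairs. The authors trimmed the reads with Trimmomatic and ran Kallisto (version not given in the sources used here), and deposited estimated counts and TPM for 88198 transcripts with 1 column per library. The methods name a human transcriptome as reference, but the identifiers are those of mouse transcripts. The authors also deposited a fold change per transcript, a ratio between the MEF libraries, of which only the gene symbols were used. Positions are from GENCODE M21 (GRCm38). Counts of transcripts with no symbol were 0.372% to 0.468% of a library and were left out, and of 2 symbols for 8 transcripts the first was used.

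Counts were summed per symbol, rounded, filtered with filterByExpr and normalized by TMM in edgeR 4.0.16 (R 4.3.3). The quasi-likelihood test was fitted over the 4 kidney libraries with treatment and line, with 1 residual degree of freedom, and adjusted over 12952 genes by Benjamini-Hochberg at 0.05. Intervals of log2 fold changes are 95% t intervals from the standard error with 10.063 degrees of freedom, the median total, of which 9.06 came from variance shared across genes. Same-numbered libraries come from the same line per the labels, and the deviations of a line from the treatment means correlated at 0.56 over genes. MEFs were compared by log2(TPM + 1) at a 2-fold threshold. Wilson intervals cover counting error only.

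The transporters and the lists (other plasma membrane and lysosomal carriers, ATF4, NRF2 and MYC genes, eIF2alpha kinases and cell type markers) were chosen with earlier results of these data known. From each list up to 3 genes per direction with the largest called change were named for kidney cells and up to 2 of at least 5 TPM for MEFs, with Tsc2, Atf4, Ddit3, Nfe2l2, Keap1 and Myc always, the markers as values, and the 3 nearest profiles of each transporter. Eif2ak3, Slc7a6 and Slc7a7 were named as kinase called and as partners of Slc3a2. Alternatives used DESeq2 1.42.0 and limma 3.58.1, other scaling, filters and pseudocounts. Some marker and promoter results are not reported here.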

Additional observations from a re-analysis of the deposited data

How the results depend on the processing

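The rapamycin direction of each transporter gene was the same under every alternative run, and 8 or 9 genes were called lower by all alternatives that kept the line in the model for gene sums. Without the replicate block (the line), 6 were called, with 716 genes lower and 559 higher over the whole table. DESeq2 called 1393 genes higher, and by transcript 0 transporters were called. Leaving out 1 library, with no line in the model and with the lone sample of a treatment assumed to vary like the other group, gave 0 to 5 transporters lower and 0 to 291 genes lower and 0 to 322 higher in all.

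Between TJ and MKOC, 0 transporters were called in every fit. Counts over all genes were 430 lower and 709 higher in TJ, and changed to 741 lower without a filter, 183 and 372 with an effective-length offset, 226 and 389 with DESeq2, 174 and 431 with limma, 0 and 0 without the replicate block (the treatment), and 0 to 20 and 0 to 95 when 1 library was left out. Signs of uncalled differences turned for Slc7a11 without the block (0.001) and in untreated libraries alone (0.088), and in treated libraries alone for Slc7a5 (0.055) and Slc7a3 (-0.36). Leaving out 1 library removed the treatment from the model, so that line and treatment were mixed by construction, and the log2 values ran from -1.26 to 0.58 for Slc1a4, -0.78 to 0.52 for Slc1a5, -0.41 to 0.004 for Slc38a1, -0.008 to 0.43 for Slc38a2, -0.079 to 0.36 for Slc3a2, -0.60 to 0.29 for Slc6a9, -0.96 to 0.69 for Slc7a11, -1.12 to 0.95 for Slc7a3 and -0.74 to 0.69 for Slc7a5.

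In the MEFs, 3222 genes were at least 2-fold higher and 662 lower. These counts became 1830 and 309 with a pseudocount of 5 TPM, 2019 and 1048 with median-ratio scaling, 1950 and 1187 with TMM-scaled counts, where 1 transporter, Slc6a9, was lower, and 414 and 67 at an 8-fold threshold. With Slc7a5 and Slc7a11 as the only light chains, their ratio to Slc3a2 was 0.643 and 0.956 in Tsc2+/+ and Tsc2-/- MEFs, 0.704 and 0.396 in untreated and treated MKOC and 0.637 and 0.335 in TJ cells. The causes were not tested. The intervals of Slc7a3 and Slc38a1 in Tsc2+/+ MEFs rest on 55 and 45 counts.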
